A study of Mus musculus with 2 samples.

Results

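Accessible chromatin was described at 9 mouse genes that set or sense the type of a muscle fibre, out of 21911 protein-coding gene symbols. The genes are Sox6, Prox1, Tbx15, Maf, Nfatc1, Nfatc2, Nfatc3, Nfatc4 and Rcan1, taken as a list of names. The data are DNase-seq, which sequences the DNA ends that DNase I cuts in open chromatin, from the gastrocnemius calf muscle of 2 male B6CASTF1/J mice aged 25 days. There is 1 library per animal and 1 group, with no treatment and no control, so every value is a description and no test between groups could be made. The labels number them biological replicates 1 and 2. They share a donor identifier, and their origin in different males rests on the labels' descriptions. Instrument models are given for replicate 1 alone, so sequencing and animal cannot be told apart. B6CASTF1/J is a first-generation hybrid that carries CAST alleles, whereas all sequences below are those of the mm10 reference. On that build the annotation places Sox6 at chr7:115470872-116038796 on the minus strand, Prox1 at chr1:190118035-190170714 on the minus strand and Tbx15 at chr3:99240381-99354259 on the plus strand. It places Maf at chr8:115682942-115707794 on the minus strand and Rcan1 at chr16:92391953-92470867 on the minus strand. Of the NFAT genes it places Nfatc1 at chr18:80606205-80713071 on the minus strand and Nfatc2 at chr2:168476410-168601657 on the minus strand. It places Nfatc3 at chr8:106058840-106130537 on the plus strand and Nfatc4 at chr14:55823144-55833943 on the plus strand.

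Slow fibres contract slowly and burn fat and sugar with oxygen, and fast fibres contract quickly and lean more on glycolysis. Sox6 represses slow-fibre genes, Prox1 is needed to keep the slow programme, Tbx15 marks and maintains fast glycolytic fibres, and Maf is a large Maf factor of the fastest fibres. Nerve activity raises calcium, calcium and calmodulin switch on the phosphatase calcineurin, and calcineurin sends the factors NFATc1 to NFATc4 into the nucleus. Rcan1 binds and restrains calcineurin, and one of its internal promoters is a known target of NFAT.

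The sequences that the results turn on are given here, each 5′ to 3′ on the stated strand of mm10, and none overlaps an annotated untranslated region. The first set holds the start and intron regions that carry the NFAT and E-box results. Capitals mark matches to NFAT (TGGAAA), T-box (AGGTGT) and AP-1 (TGANTCA) in the first sequence, to NFAT in the following pair and to the E-box (CAGCTG) in the last. A match on the other strand appears as the reverse complement, for example TTTCCA for NFAT.
Rcan1 start 4 (chr16:92400078-92400300, strand -): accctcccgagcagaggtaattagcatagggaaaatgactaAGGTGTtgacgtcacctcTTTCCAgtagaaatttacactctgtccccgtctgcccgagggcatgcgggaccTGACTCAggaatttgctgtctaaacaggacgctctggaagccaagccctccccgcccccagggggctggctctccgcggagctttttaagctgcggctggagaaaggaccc
Nfatc2 start 1 (chr2:168601749-168602048, strand -): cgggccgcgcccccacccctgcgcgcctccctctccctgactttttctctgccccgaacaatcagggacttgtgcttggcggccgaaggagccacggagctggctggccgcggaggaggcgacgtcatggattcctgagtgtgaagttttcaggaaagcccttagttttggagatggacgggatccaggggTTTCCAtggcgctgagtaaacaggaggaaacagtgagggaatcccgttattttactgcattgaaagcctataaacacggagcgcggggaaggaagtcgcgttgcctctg
Nfatc2 intron (chr2:168524981-168525200, strand -): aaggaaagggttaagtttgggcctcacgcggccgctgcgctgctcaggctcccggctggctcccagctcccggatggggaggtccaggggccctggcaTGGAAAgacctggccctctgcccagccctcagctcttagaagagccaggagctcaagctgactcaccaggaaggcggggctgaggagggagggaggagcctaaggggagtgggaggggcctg
Tbx15 intron (chr3:99292681-99292940, strand +): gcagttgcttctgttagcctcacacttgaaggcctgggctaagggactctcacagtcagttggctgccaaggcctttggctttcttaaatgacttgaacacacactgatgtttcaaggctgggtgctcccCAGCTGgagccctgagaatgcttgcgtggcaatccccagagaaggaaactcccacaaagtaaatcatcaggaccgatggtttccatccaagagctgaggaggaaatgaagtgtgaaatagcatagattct

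The second set shows what the footprints cover at start regions and at the strongest distal region of Maf. A footprint is a short stretch that DNase I cut less than its surroundings, as a bound protein would leave. Capitals mark bases inside a footprint in both libraries.
Rcan1 start 2 (chr16:92466184-92466483, strand -): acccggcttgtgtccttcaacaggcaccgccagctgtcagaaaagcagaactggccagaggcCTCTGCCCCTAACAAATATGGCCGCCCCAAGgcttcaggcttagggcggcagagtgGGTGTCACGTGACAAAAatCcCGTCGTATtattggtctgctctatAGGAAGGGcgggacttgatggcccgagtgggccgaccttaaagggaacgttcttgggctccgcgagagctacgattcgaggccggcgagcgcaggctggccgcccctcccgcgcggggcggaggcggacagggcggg
Sox6 start 3 (chr7:116033711-116034010, strand -): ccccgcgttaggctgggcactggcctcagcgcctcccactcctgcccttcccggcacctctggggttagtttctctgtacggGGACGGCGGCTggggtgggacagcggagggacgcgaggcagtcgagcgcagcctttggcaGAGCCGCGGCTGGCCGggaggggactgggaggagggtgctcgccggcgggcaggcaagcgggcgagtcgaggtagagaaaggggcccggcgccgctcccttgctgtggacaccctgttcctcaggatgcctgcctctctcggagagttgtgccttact
Maf upstream (chr8:115709501-115709780, strand -): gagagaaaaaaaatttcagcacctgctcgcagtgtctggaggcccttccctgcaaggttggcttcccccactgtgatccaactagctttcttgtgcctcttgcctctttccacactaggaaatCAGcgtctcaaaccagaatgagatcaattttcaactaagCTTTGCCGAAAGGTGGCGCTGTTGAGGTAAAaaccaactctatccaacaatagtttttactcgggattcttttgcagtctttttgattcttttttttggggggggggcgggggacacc

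The third set holds 6 matches to the core motif of CTCF, a protein that bounds chromatin loops, with 9 bases on either side. Capitals mark the match.
CTCF Nfatc2 a (chr2:168445615-168445644, strand -): tctgagtggCCACCAGAGGGCgaacgtacc
CTCF Nfatc2 b (chr2:168628986-168629015, strand -): acatctcagCCACCAGGGGGCacacgagga
CTCF Nfatc3 a (chr8:106022695-106022724, strand -): actctgactCCACCAGGGGGCactgtaacc
CTCF Nfatc3 b (chr8:106140911-106140940, strand +): cgcttcataCCACCAGAGGGCgcgctgact
CTCF Nfatc3 c (chr8:106165633-106165662, strand +): ctcagggggCCACTAGAGGGCgatctaaga
CTCF Rcan1 (chr16:92385233-92385262, strand +): tatttctggCCAGCAGGGGGCgctgctgtt

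Replicate 1 held 97499 peaks and 243784 footprints, and replicate 2 held 61664 peaks and 171389 footprints. Peak signals are the values that the authors deposited. Within a library the signals below 3, the only ones checked, were whole multiples of a fixed step to a small tolerance. If a step is 1 tag scaled to library size, which no source states, the libraries held 169 M tags in replicate 1 and 117 M in replicate 2. The library with more tags also had more peaks, and the part of depth in peaks seen in replicate 1 alone was not tested. The tissue label was checked by start peaks of marker genes. All 8 myofibre markers had one in each library, and 0 of 4 leukocyte markers had one in either. Whole muscle also holds other cells. Start peaks were found in both libraries for 3 of 3 fibro-adipogenic markers and 5 of 6 endothelial markers, Prox1 among them, with signals from 0.349 to 1.29 in replicate 1 and from 0.564 to 1.45 in replicate 2 for the endothelial ones. Fewer cells with an open region and less opening per cell cannot be told apart in such tissue.

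All 9 regulators had a peak within 1 kb of an annotated start in both libraries, and all 9 kept one in the stricter of the deposited peak lists. Over all protein-coding symbols the shares were 66.5% in replicate 1, 64.2% in replicate 2 and 63.0% in both. Openness at the start was moderate: the median signal of the strongest start peak over the 9 genes was 3.02 in replicate 1 and 2.50 in replicate 2, against medians of 3.57 and 3.43 over all genes with a start peak. Only Rcan1 and Nfatc3 lay above the all-gene median, in each library.

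The calcineurin inhibitor Rcan1 had the most open start. Its signal was 7.77 in replicate 1 and 4.61 in replicate 2, at the 85.1 and 66.6 percentiles of genes with a start peak. Nfatc3 came next with 6.70 in replicate 1 and 4.08 in replicate 2. Both genes were higher in replicate 1, and their means were 6.19 ± 2.24 and 5.39 ± 1.85 (SD, n = 2). Rcan1 was above Nfatc3 within each library, and their order rests on these 2 libraries alone.

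Of the other calcineurin-regulated factors, Nfatc4 had 3.14 and 2.96, Nfatc2 had 3.02 and 2.32, and Nfatc1 had 2.40 and 2.50 in replicates 1 and 2. Nfatc1 differed least between the libraries among these. Their means of 3.05 ± 0.13, 2.67 ± 0.50 and 2.45 ± 0.07 (SD, n = 2) lay below the median of all genes in both libraries.

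The fast-fibre factors had intermediate values. Maf had 3.55 in replicate 1 and 2.88 in replicate 2, taken from different peaks. The peak of replicate 1 lay nearest the 5′ end and that of replicate 2 nearest the other start, 0.698 kb into the gene. The region just upstream of its 5′ end alone had 3.55 and 2.50, and the region over the first part of the gene had 1.66 and 2.88. The libraries thus differed in which of the Maf regions was stronger. Tbx15 had 2.51 and 2.18, again from different peaks, and the region open in both libraries had 2.50 and 2.18.

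Sox6, the repressor of slow genes, had 2.03 in replicate 1 and 2.07 in replicate 2. Prox1, of the slow programme, had the lowest start signal of the 9 genes, with 1.22 in replicate 1 and 1.45 in replicate 2. Both were low among genes with a start peak, Sox6 at the 31.8 percentile in replicate 1 and Prox1 at the 20.9 percentile in replicate 2. Prox1 is also a factor of lymphatic endothelium. Of the other lymphatic markers, Flt4 had no start peak and Lyve1 had signals of 0.349 in replicate 1 and 0.564 in replicate 2. The part of lymphatic vessels in the Prox1 peak was not tested.

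**Figure D1:**
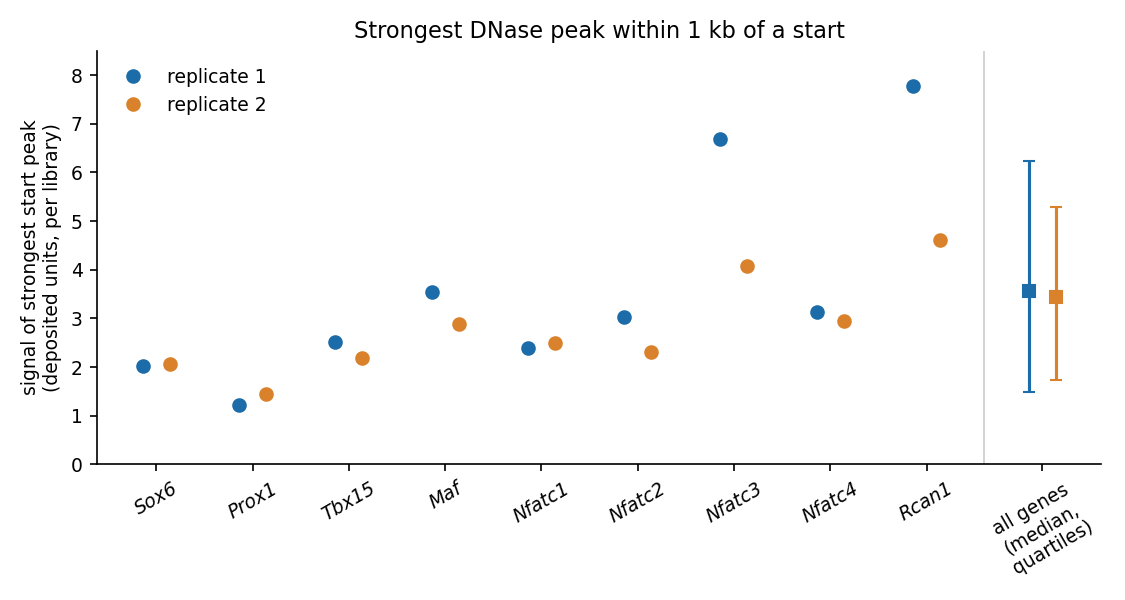
Signal of the strongest peak within 1 kb of a start (y axis, deposited units) for each regulator (x axis), with replicate 1 left of replicate 2. Squares on the right give the median and quartiles of all genes with a start peak, and only Rcan1 and Nfatc3 lie above both medians.

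The genes have several annotated starts, and in Sox6, Tbx15 and Rcan1 the most open one was not the 5′ end. The 9 genes have 40 start sites, counting starts within 100 bp as 1. Of these, 22 had a peak in both libraries, 4 in replicate 1 alone, 2 in replicate 2 alone and 12 in neither. At 11 of those 12 no position was listed below a q-value of 0.05 in either library. Neighbouring sites can share a peak, since the windows overlap. The 5′ end had a peak within 1 kb in 7 of 9 genes in each library, and the exceptions were Tbx15 and Rcan1. For Sox6 the peak seen in both libraries lay upstream, over an exon of the neighbouring gene 1110004F10Rik.

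In Rcan1 the open starts were internal. The 5′ end had no peak and no listed position. The second start, 4.72 kb into the gene, carried the strong peak of 7.77 in replicate 1 and 4.61 in replicate 2. The next start, at 12.4 kb, had 1.12 and 0.983. Start 4, at 70.8 kb, is that of the short transcripts that begin late in the gene, and had 2.28 in replicate 1 and 2.14 in replicate 2. It was thus open to a like degree in both animals, at a lower signal than the second start. Its sequence, printed first above, holds 1 match each to NFAT, T-box and AP-1, and no footprint touched any of them in either library.

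Within 1 kb of its 5′ end Sox6 was barely open, with 0.319 in replicate 1 and 0.444 in replicate 2. Both values came from a region centred 0.593 kb upstream. It lay over an exon of the neighbouring gene 1110004F10Rik and within 1 kb of that gene's start. The region over the Sox6 5′ end itself had 0.278 in replicate 1 and no peak in replicate 2. The signal of Sox6 lay at the starts 4.28, 5.19 and 7.75 kb into the gene. The strongest peaks there had 2.03, 2.03 and 1.74 in replicate 1 and 2.07, 2.07 and 1.98 in replicate 2. The first pair of these starts shares a peak. At the last, the values came from different regions, each also at a start of Sox6os. The region over the 7.75 kb start had 1.74 and 1.35, and the other had 1.53 and 1.98, in replicates 1 and 2. Of the 6 later starts, spread over the 568 kb gene, none had a peak in both libraries. A stronger region lay 1.545 kb upstream of the 5′ end, at 2.35 in replicate 1 and 2.87 in replicate 2. It too belongs to the start of 1110004F10Rik.

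Tbx15 opened at the start 13.4 kb into the gene, in both libraries. Nfatc1 was open at its 5′ end and again at the start 4.90 kb in, with 2.27 in replicate 1 and 2.45 in replicate 2 there. Nfatc2 had its second start, at 11.3 kb, open in replicate 1 alone with 0.982. Nfatc3 was open at the starts at and next to its 5′ end and closed at the later pair. Nfatc4, a short gene, had a peak at 5 of its 7 starts in each library. Prox1 had a peak at its 5′ end in both.

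**Figure D2:**
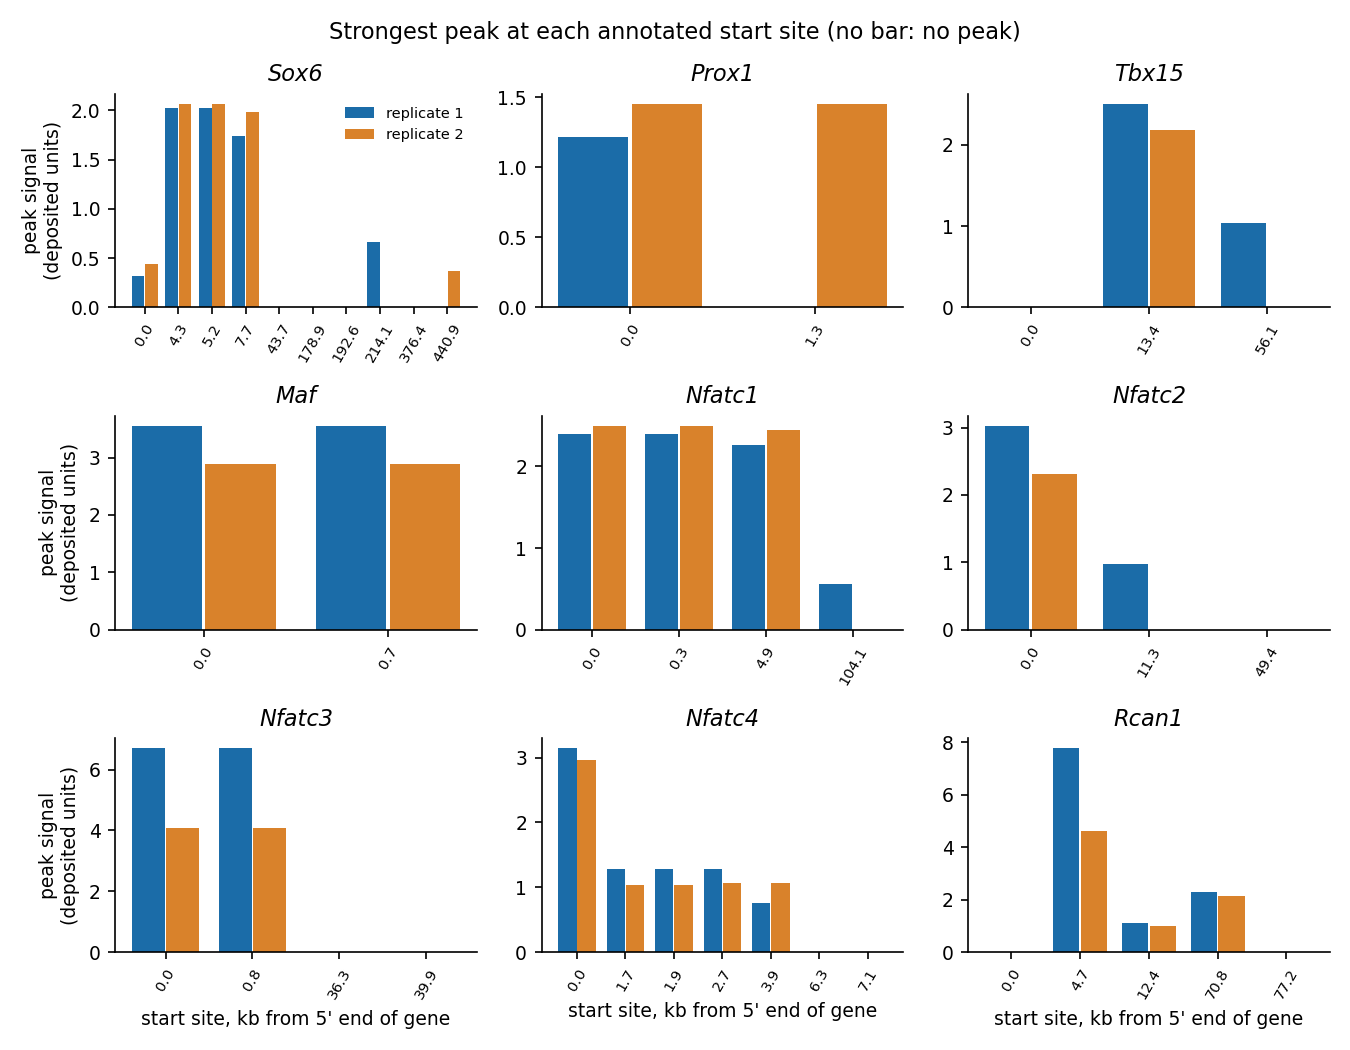
Signal of the strongest peak (y axis, deposited units, a scale per panel) at each start site (x axis, kb from the 5′ end of the gene), replicate 1 left of replicate 2. A missing bar means no peak, as at the 5′ ends of Rcan1 and Tbx15.

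Inside the genes and 50 kb around them lay 171 peaks in replicate 1 and 111 in replicate 2, or 83.3 and 54.1 per Mb. This was 2.33 and 2.39 times the genome's rate of 35.8 and 22.6 per Mb. That rate also counts sequence far from any gene, so it is not the rate around other genes. By gene the ratio ran from 0.183 in replicate 1 and 0.868 in replicate 2 at Prox1 to 5.80 and 10.4 at Nfatc4. Overlapping peaks were joined into 174 regions, of which 84 were open in both libraries, or 48.3%, against 46745 of 106295 regions over the genome. Replicate 1 alone had 76 regions. In 8 of these a position below a q-value of 0.05 was listed in replicate 2, against 9.83% of all such regions. Replicate 2 alone had 14, of which 4 had such a position in replicate 1, against 17.6% of all.

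**Figure D3:**
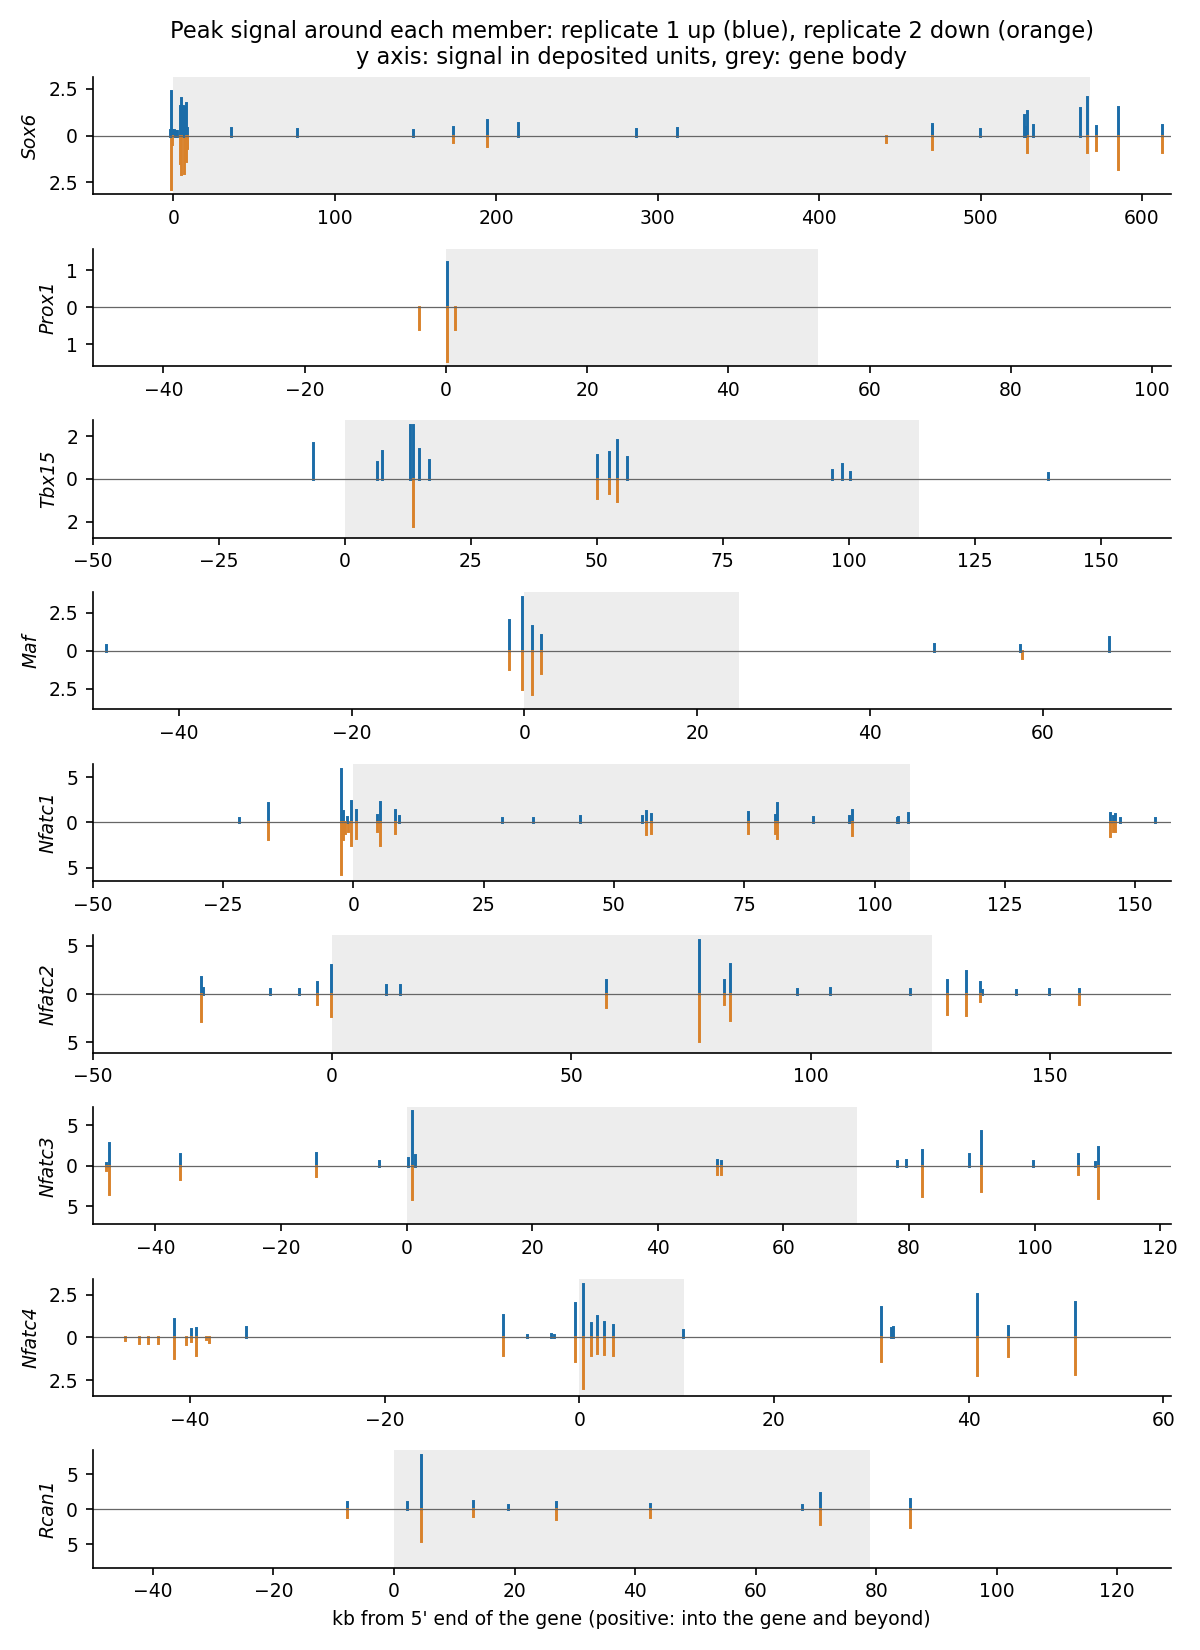
Signal of every open region (y axis, deposited units, a scale per panel) by distance from the 5′ end of each gene (x axis, kb), replicate 1 upward and replicate 2 downward, with the gene body in grey. Prox1 has 3 regions, whereas Sox6 has 35.

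Distal peaks are those that overlap no start window of any gene, and Nfatc1, Nfatc2, Nfatc4 and Sox6 had many for their class of gene length. Each gene was ranked by its count among protein-coding genes in the same of 4 classes of gene length. Nfatc1 had 22 distal peaks in replicate 1 and 14 in replicate 2, at the 95.1 and 96.2 percentiles. Nfatc2 had 21 and 10, at 94.2 and 91.5. Sox6 had 22 and 9, at 95.1 and 89.1. Nfatc4 had 11 and 10, at 94.1 and 95.7. Those 4 genes were above the 75th percentile in both libraries. Ranked instead by peaks per Mb among all genes, Sox6 was near the middle, at the 50.9 percentile in replicate 2.

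Prox1 stood at the other end, with 0 distal peaks in replicate 1 and 1 in replicate 2. Rcan1, Maf and Tbx15 had 6, 5 and 12 in replicate 1 and 3, 2 and 3 in replicate 2, at percentiles between 47.3 and 77.8. Nfatc3 had 9 and 6, at 65.4 and 77.1. The count of Nfatc4 includes regions in its neighbours Adcy4 and Nynrin. Several of these were weak. In replicate 2, 7 regions of this locus were absent from replicate 1, and the weakest peak of the locus held 14 tags on the reading above.

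**Figure D4:**
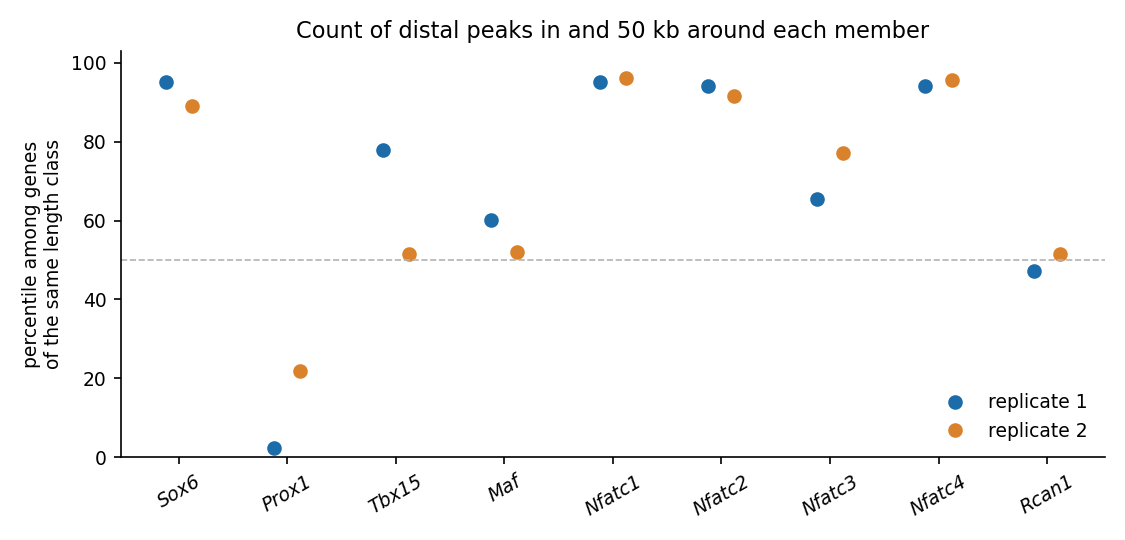
Percentile (y axis) of the count of distal peaks in and 50 kb around each gene among genes of its length class, replicate 1 left of replicate 2. Nfatc1, Nfatc2, Nfatc4 and Sox6 lie above 89 in both libraries, and Prox1 lies lowest in both.

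At 2 of the 9 genes a distal region exceeded the gene's own start in both libraries. In Nfatc1 it lay in intergenic sequence 2.41 kb upstream of the 5′ end (chr18:80715381-80715580), with 5.91 in replicate 1 and 5.67 in replicate 2. This placed it at the 99.7 and 99.3 percentiles of all distal peaks. The start of Nfatc1 had 2.40 and 2.50, so the upstream region was stronger in both animals.

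In Nfatc2 the strongest distal region lay in an intron 76.6 kb into the gene, with 5.54 in replicate 1 and 4.88 in replicate 2, at the 99.6 and 98.9 percentiles. It is printed above as the Nfatc2 intron. A region over an Nfatc2 exon at 83.2 kb followed, with 3.15 in replicate 1 and 2.68 in replicate 2. Both regions exceeded the 3.02 and 2.32 of the Nfatc2 start and were slightly higher in replicate 1.

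The other genes had weaker distal regions. Nfatc3 had 1.92 in replicate 1 and 3.74 in replicate 2 at 82.1 kb, beyond its 3′ end. Rcan1 had 1.45 and 2.52 at 85.6 kb. Both regions were stronger in replicate 2, and both hold a CTCF match printed above. Nfatc4 had 2.54 and 2.21 at 40.9 kb, over an exon of Nynrin.

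Maf had 2.01 in replicate 1 and 1.24 in replicate 2 at 1.85 kb upstream. Tbx15 had 1.82 and 1.03 in an intron 54.0 kb into the gene. Sox6 had 1.53 and 1.79 at 585 kb, beyond its 3′ end. Prox1 had no distal region open in both.

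Few shared regions differed past 2-fold between the libraries. The log2 ratio of replicate 1 over replicate 2, centred on all shared regions, ran from -0.97 to 1.41 with a median of -0.04. Past 2-fold in favour of replicate 1 were 2 of 84 regions, against 2.25% of all shared regions, and in favour of replicate 2 were 0 of 84, against 2.16%. The first of the 2 lay over an exon of Sox6 566 kb into the gene, with 2.07 in replicate 1 and 0.872 in replicate 2. The second, with 0.503 and 0.188, lay at a start of Adcy4 beside Nfatc4 and gave the highest ratio. It was weak, with 85 tags in replicate 1 and 22 in replicate 2 on the reading of a step as 1 tag.

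Tbx15 had the lowest share of regions open in both libraries, 26.7%. Of its 15 regions, 4 were open in both libraries and 11 in replicate 1 alone, and all 4 shared ones were higher in replicate 1. Its shared start region had 2.50 in replicate 1 and 2.18 in replicate 2, and its intron regions at 50.1, 52.4 and 54.0 kb had 1.14, 1.27 and 1.82 in replicate 1 and 0.897, 0.675 and 1.03 in replicate 2. The strongest region seen in replicate 1 alone, with 2.51, was at the 99.7 percentile of all such regions. Sequencing depth and the animal cannot be told apart here.

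Footprints in and around the 9 genes numbered 436 in replicate 1 and 299 in replicate 2. Those that overlapped a footprint of the other library made up 32.6% and 48.5%, against 36.0% and 52.2% of all footprints. At the strong second start of Rcan1, the shared footprints covered 65 of the 300 bases printed above.

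Motif matches were searched in the regions open in both libraries, on both strands, and a match counted as footprinted where a footprint overlapped it by at least 1 base in each library. NFAT, T-box, AP-1 and the E-box were spelled as above. SOX was searched as AACAAT, and the site of the large Maf factors as TGCTGAC. The muscle motif MCAT was searched as GGAATG and the further muscle motif MEF3 as TCAGGTT, while MEF2 and CTCF were searched by their consensus. AP-1 and MAF can overlap. CTCF stood out from the others at these genes as it did in the genome. All 7 of its matches were footprinted, against 87.9% of matches in all shared regions, and 7 of the 84 regions held one, against 7.22% of all. They lay in the loci of Nfatc1, Nfatc2, Nfatc3 and Rcan1. At the first site of Nfatc2 the footprint of replicate 1 touched only 2 of the 12 bases.

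NFAT matches were in 25 of the 84 regions, against 20.4% of all shared regions, and 4 of 35 matches, or 11.4%, were footprinted, against 6.97% of all. These 4 were at the starts of Nfatc1 and Nfatc2 and in a pair of Nfatc2 introns, one of them the strong intron region at 76.6 kb. With so few matches the shares are descriptions only. The E-box, bound by the myogenic factors, was in 31 regions, against 27.3% of all, and 2 of 39 matches were footprinted, in the Tbx15 intron printed above and beside Nfatc4, or 5.13% against 10.2% of all. T-box, in 12 regions against 10.8% of all, had 2 of 19 footprinted, or 10.5% against 7.15% of all. Both were in the Nfatc1 locus. At 1 of them the region held a single footprint in replicate 2, which also covered a CTCF match, so it is counted for both motifs. MAF, in 9 regions against 6.17% of all, had 1 of 10 footprinted, against 9.86% of all. SOX was in 9 regions against 5.73% of all, AP-1 in 10 against 8.67%, MCAT in 11 against 14.6% and MEF3 in 2 against 3.37%. None of the 9 SOX, 12 AP-1, 12 MCAT and 3 MEF3 matches was footprinted in both libraries, against 5.29%, 6.01%, 7.70% and 5.39% of those motifs' matches in all shared regions. With so few matches, a count of 0 is close to these low shares. MEF2, in 1.79% of all shared regions, had no match here.

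**Figure D5:**
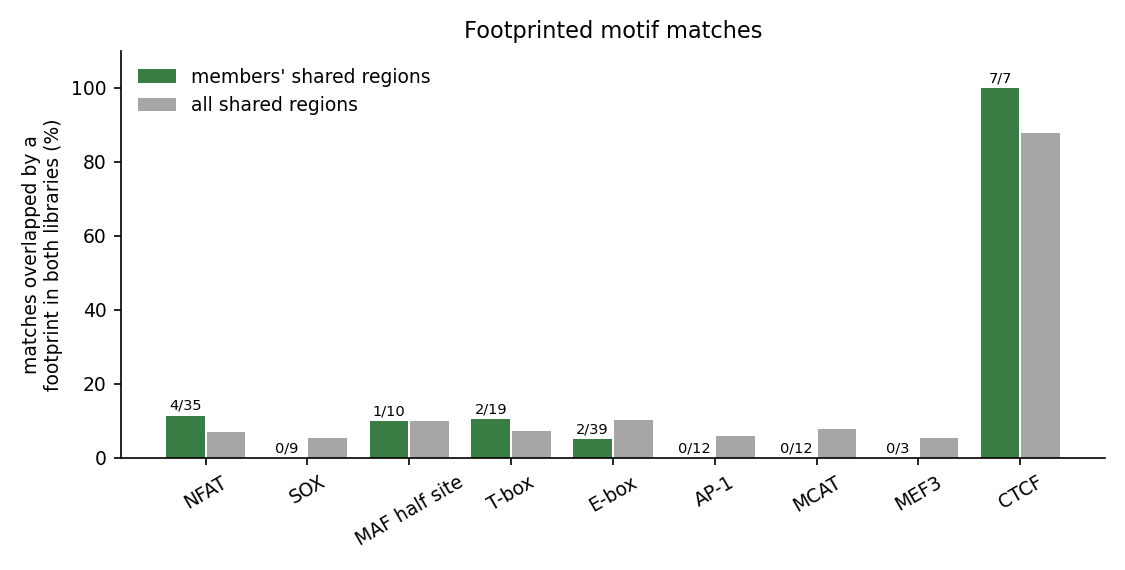
Share of motif matches overlapped by a footprint in both libraries (y axis, percent) for each motif (x axis), in regions of the 9 genes (green, with counts) and in all shared regions (grey). CTCF had 7 of 7 and NFAT 4 of 35. MEF2 had no match and is not shown.

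Genes that act with the 9 were taken from lists and can be set beside the shares of 66.5% and 64.2% over all genes. The list of calcineurin and its inputs is wider than its name and also holds genes such as Gsk3b, Dyrk1a and Nfat5. It had a start peak in 24 of 25 genes in replicate 1 and 23 of 25 in replicate 2, with median signals of 7.58 and 5.81. By mean percentile over the libraries, the rule for naming genes of a list, the catalytic subunit Ppp3ca came first, with 15.6 in replicate 1 and 10.4 in replicate 2. Calmodulin Calm3 had 11.7 and 9.13, and Nfat5, an NFAT relative that calcineurin does not regulate, had 9.85 and 14.0. The order thus differed between the libraries, and Nfat5 was above Ppp3ca in replicate 2. Myoz2 had no peak in either library and Myoz3 had one in replicate 1 alone.

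Among relatives of the 9, 10 of 12 had a start peak in each library, Nfat5 and Mafa among them. Mafa averaged 5.76 ± 1.76 (SD, n = 2), against 3.21 ± 0.47 for Maf. Tbx1 and Nrl had none. Fast-fibre targets had a start peak in 13 of 15 genes in replicate 1 and 12 of 15 in replicate 2, with Actn3, Pfkm and Mybpc2 first by mean percentile, and Myh1 and Myh2 had none. Slow-fibre targets had one in 9 of 14 and 6 of 14, with Atp2a2, Tpm3 and Actn2 first by mean percentile, and Myh7, Myh7b, Tnnc1, Myoz2 and Sln had none. The median signals were 2.27 and 1.84 for fast targets and 1.43 and 1.47 for slow ones, in replicates 1 and 2, over the genes with a peak.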

How the data were processed

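DNase-seq of 2 gastrocnemius libraries was analysed from the deposited lists. Per the labels the build is mm10. Notes deposited with the files trace every list to the alignments of 1 library, so nothing was pooled. Sources used here name neither aligner nor callers. The deposited peak signal was used as given. The deposited per-position q-value is listed only below 0.05. The other column of the footprint files is constant, so footprints were used by position only.

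Annotation was GENCODE M21 and sequence the RefSeq copy of GRCm38, the same assembly as mm10. Starts within 100 bp were merged, windows were 1 kb either side, flanks 50 kb and motif windows for shares of peaks 150 bp. The longer peak list of each library was used. Computation used Python 3.11.15 and numpy 2.4.6. Peak assignment was tested on simulated data, with 200 of 200 planted start peaks recovered. The 9 genes, the lists and the regions named (the strongest start and distal regions of each gene, and the 5 strongest distal regions over all) were chosen with earlier results of these data known. 1 of the relatives is not reported here by name. No p-value was computed.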

Additional observations from a re-analysis of the deposited data

How the results depend on the processing

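All 9 genes kept a start peak in both libraries with windows of 500 or 2500 bp, in the shorter list, by peak centre and in either library alone, and 7 did at the 5′ end alone. The median start signal stayed between 2.50 and 3.02 without either replicate. With a window of 2500 bp the start signal of Nfatc1 became 5.79, since the upstream region entered it. That of Sox6 became 2.61, from the region at the start of 1110004F10Rik. Within 1 kb of the 5′ end alone Sox6 had 0.382, from the region over an exon of 1110004F10Rik. The mean count of peaks was 141 and became 79.5 in the gene body alone, where less sequence is searched. It ran from 111 to 171 in the single libraries. Genes high in distal peaks numbered 4, or 5 in the shorter list and in either library alone. Ranked per Mb among all genes, Sox6 dropped out at the 50.9 percentile in replicate 2 and Nfatc3 came in. Counting only peaks of 50 tags or more, an alternative chosen after seeing the data, left 4. Shared footprints averaged 40.5%, or 27.9% where overlap of 50% of both was required, and 32.6% to 48.5% in the single libraries. Motifs with a higher share in distal peaks of the 9 genes than in all distal peaks in both libraries numbered 5 of 10, 3 with 100 bp and 3 with 300 bp, and the cause was not tested. With 2 libraries, an SD has little precision.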

Other observations

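In distal peaks of the 9 genes, the NFAT motif was found in the middle 150 bp of 19 of 108 peaks in replicate 1 and 12 of 58 in replicate 2, or 17.6% and 20.7%, against 15.7% and 13.1% of all distal peaks. The T-box motif was found in 10.2% and 13.8%, against 5.99% and 7.41%. SOX, MAF and CTCF were also higher than in all distal peaks in both libraries, MCAT, MEF3 and MEF2 were lower in both, and AP-1 and the E-box differed in direction between the libraries. The NFAT share of the 9 genes' distal peaks, 19.1% as the mean of the libraries, was 15.5% in the middle 100 bp, 29.5% in the middle 300 bp and 23.2% over whole peaks. A longer window can hold more matches in any peak. The shares of all distal peaks in these other windows are not given, so these values have no background beside them. The second start of Rcan1 and the start of Nfatc3 were both higher in replicate 1, by 0.75 and 0.71 on the centred log2 scale.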
